A study of Mus musculus with 6 samples.

Results

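In all, 8 genes of skeletal muscle were followed in cells sorted from the trachea of mouse embryos at embryonic day 13.5: the myogenic factor genes Myf5, Myod1, Myog and Myf6, the acetylcholine receptor subunit genes Chrna1 and Chrng, the embryonic myosin heavy chain gene Myh3 and the titin gene Ttn. They were picked by symbol, all 8 were found among the 23478 genes of the count table, and all 8 passed the filter on low counts. They were chosen with their values in these libraries known, so their levels and folds are given as a description, without a test. The 6 libraries are 3 of muscle, collected by the green fluorescence of eGFP, which reports gamma smooth muscle actin (gamma SMA), and 3 of epithelium, collected by an antibody to Epcam. All 6 carry the genotype Bmp4 f/f; gamma SMA eGFP and are marked as controls, so the epithelium has the floxed alleles and the reporter too, and no Cre is named. Whether the replicates came from separate embryos or litters, or from pooled ones, is not given in the sources used here, so p-values measure the spread between these libraries, which may be technical.

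As background, the myogenic factors are basic helix-loop-helix proteins that bind E-boxes, short DNA sites of the form CANNTG, as dimers with the widely expressed E proteins. Myf5 and Myod1 commit precursors to the skeletal muscle lineage, Myog drives their differentiation into fusing myocytes, and Myf6 acts in early commitment and again in maturing fibres. The muscle of the tracheal wall is smooth muscle, which forms without these factors. Skeletal muscle lies next to the trachea in the larynx and, in mice, in the wall of the oesophagus.

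The libraries held 11847432 to 54848820 counts. Values are CPM, a count scaled to a common library size with edgeR's TMM factors, and intervals are exact Poisson 95% intervals that cover counting error only. All 12 smooth muscle markers were higher in muscle at an adjusted p under 0.05 in edgeR and all 8 epithelial markers were higher in epithelium. Of all genes tested, 6.58% and 4.11% were. The lists include Actg2 and Epcam, whose difference the sort itself sets. Muscle replicate 2 had the lowest summed smooth muscle markers, 4542 CPM against 18640 and 19990 CPM in replicates 1 and 3. Muscle replicate 2 and epithelium replicates 2 and 3 had counts in 73.3% to 78.9% of 1456 receptor genes of smell and pheromone neurons (olfactory and vomeronasal), and the other 3 libraries in 3.02% to 17.5%. Such background counts averaged 0.535, 0.988 and 0.414 CPM per receptor gene in those 3 libraries and 0.00508 to 0.0310 in the others. They are set beside some of the low values below, and for the other low values in those 3 libraries the part of background counts was not tested.

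Among the muscle libraries, replicate 1 had the highest level of 6 of the 8 genes, and the other 2, Myf6 and Ttn, were highest in replicate 2. Summed over the 8 genes, muscle replicate 1 had 423 CPM, muscle replicate 2 had 93.1 and muscle replicate 3 had 38.0, and the epithelial libraries had 1.45, 158 and 75.9. Of the 93.1 and 158 CPM in muscle replicate 2 and epithelium replicate 2, Ttn alone made up 74.7 and 130. The median of the 8 genes was 25.5 CPM in muscle replicate 1, 2.75 in replicate 2 and 3.42 in replicate 3. With library totals as the scaling the last 2 became 3.11 and 2.75, so their order is set by the scaling. Among them, 4 genes, Myog, Myod1, Chrng and Myh3, had at least 1 CPM in muscle replicate 1 and at least 4 times their level in each other muscle library. The same was true of 0.162% of all 23478 genes. Myf6 was the only one of the 8 to stand that far above the rest in muscle replicate 2, where 16.3% of all genes did, and none of the 8 did in muscle replicate 3, against 0.0469%. Since the 8 genes were read library by library when they were chosen, nothing is drawn from these shares.

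**Figure D1:**
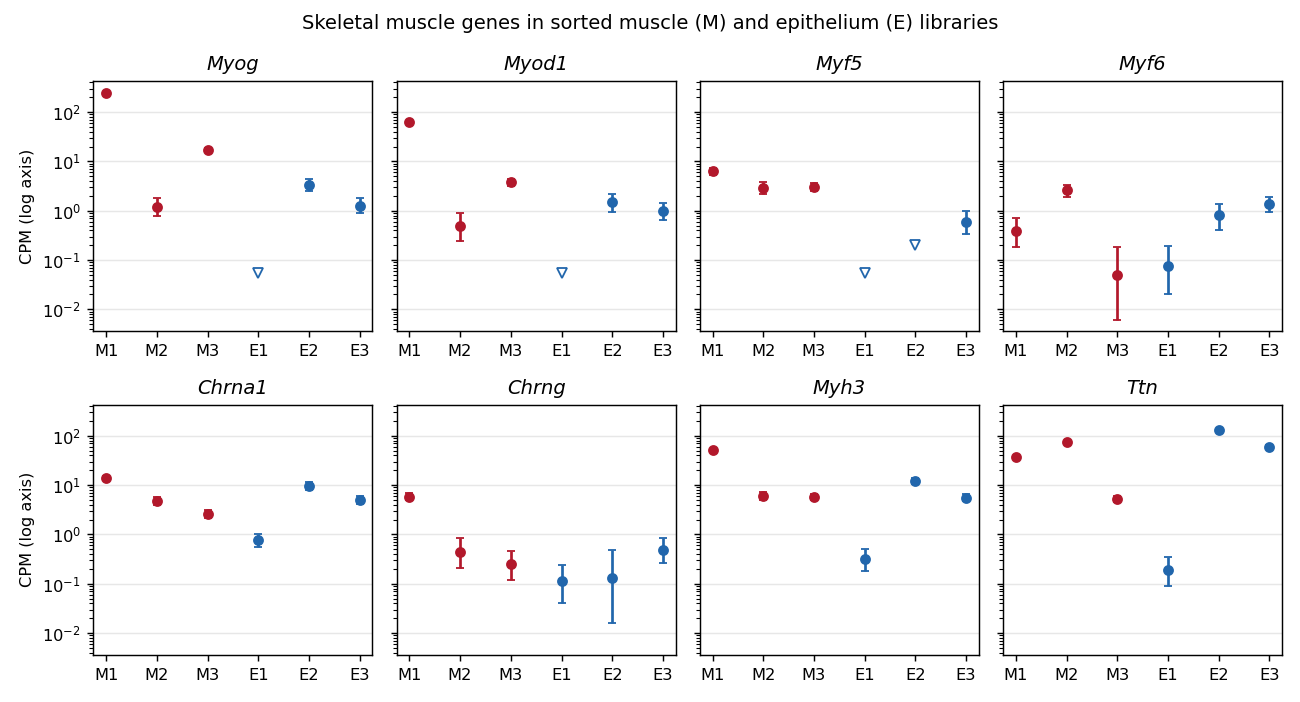
CPM of each of the 8 genes (log axis) in muscle replicates 1 to 3 (M1 to M3, red) and epithelium replicates 1 to 3 (E1 to E3, blue); points are single libraries, bars are exact Poisson 95% intervals, and open triangles mark libraries with no counts, drawn at the CPM of 3 counts. Myog and Myod1 are highest in M1, lower in M3 and lowest of the muscle libraries in M2, Myf5 is above the epithelium in all 3 muscle libraries, and Ttn is highest in E2, at 130 CPM.

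Myog, the factor of myocyte differentiation, had the highest level of the 8 in muscle replicate 1. The gene lies at chr1:134290004-134292548 (GRCm38). Its 6453 counts there were 245 CPM (239 to 251). Muscle replicate 3 had 685 counts, or 17.3 CPM (16.0 to 18.7), and muscle replicate 2 had 24 counts, or 1.20 CPM (0.768 to 1.78). Epithelium replicate 1 had no Myog count (interval up to 0.0686 CPM), and epithelium replicates 2 and 3 had 3.34 and 1.28 CPM. Muscle replicates 1 and 3 thus stood above every epithelial library, and muscle replicate 2 lay among them. Its 1.20 CPM was above 85.2% of the receptor genes of the same library, and the 3.34 and 1.28 CPM of the epithelium were above 94.1% and 92.9% of theirs. In the file headers, muscle replicate 1 and epithelium replicate 1 carry the same identifier apart from the sort channel and a serial number, and so do both libraries numbered 2, whose identifier reads as an earlier date, but not those numbered 3. Thus the library with the most Myog and the one with no count of it share an identifier.

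Myod1, the commitment factor on chromosome 7 (46376474 to 46379092), followed Myog. It had 1633 counts or 62.1 CPM (59.1 to 65.2) in muscle replicate 1, 0.499 CPM in replicate 2 and 3.82 CPM (3.23 to 4.48) in replicate 3. The epithelial libraries had 0, 1.47 and 0.977 CPM. As with Myog, replicates 1 and 3 were above all epithelial libraries and replicate 2 was not, its level being above that of 63.1% of the receptor genes. From muscle replicate 3 to 1 the level was 14.2-fold higher for Myog (13.1 to 15.4, exact binomial interval on the counts) and 16.3-fold higher for Myod1 (13.8 to 19.3). Within a library, Myog had 3.95 counts per Myod1 count (3.74 to 4.18) in muscle replicate 1 and 4.54 (3.80 to 5.45) in replicate 3. The intervals overlap, so the proportion of the factors was alike within counting error in these libraries, at levels more than 10-fold apart.

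Myf5, the other commitment factor, did not share that pattern. It had 165, 58 and 120 counts in muscle replicates 1 to 3, or 6.27 (5.35 to 7.31), 2.90 (2.20 to 3.74) and 3.03 CPM (2.52 to 3.63). Epithelium replicates 1 and 2 had no count (intervals up to 0.0686 and 0.2465 CPM), and replicate 3 had 16 counts or 0.601 CPM. Myf5 was the only one of the 8 genes with every muscle library above every epithelial library, as 16.4% of the tested genes were. In muscle replicate 2, a library with many background counts, its level was above that of 98.5% of the receptor genes. The part of background counts in it was not tested. Muscle replicate 1 was 2.07-fold above replicate 3 (1.62 to 2.64) and 2.17-fold above replicate 2 (1.60 to 2.97), and replicates 2 and 3 differed by less than counting error. Per Myf5 count there were 9.90 Myod1 counts (8.43 to 11.7) in muscle replicate 1, 1.26 (0.984 to 1.61) in replicate 3 and 0.172 (0.0786 to 0.340) in replicate 2. The last ratio rests on 10 Myod1 counts. The fitted log2 fold change of muscle over epithelium was 4.31 for Myf5, with no test, and became 9.92 without epithelium replicate 3, the only epithelial library with a Myf5 count, and 6.53 with the replicate number as a block.

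Myf6, which lies on chromosome 10 with 5920 bases between it and Myf5, was low in the library where Myog was highest. It had 10, 52 and 2 counts in muscle replicates 1 to 3, or 0.380 (0.182 to 0.699), 2.60 (1.94 to 3.40) and 0.0506 CPM (0.00612 to 0.183). The epithelial libraries had 0.0743, 0.802 and 1.35 CPM. Its highest values were in the 3 libraries with many background counts, and the groups overlapped. In muscle replicate 2 its level was above that of 97.8% of the receptor genes, and the part of background counts in it was not tested. The neighbouring genes Myf5 and Myf6 had their highest muscle CPM in different libraries, but that of Myf6 was in a library with many background counts. Of muscle replicates 1 and 3, both genes were higher in replicate 1, Myf6 on 10 and 2 counts.

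Chrna1 and Chrng encode the alpha subunit of the muscle acetylcholine receptor and its gamma subunit, which is found in the fetal form of the receptor and is later replaced by the epsilon subunit. Chrng had 152 counts or 5.78 CPM (4.90 to 6.77) in muscle replicate 1 and 0.449 and 0.253 CPM in replicates 2 and 3. The epithelial libraries had 0.111, 0.134 and 0.488 CPM. Apart from muscle replicate 1, then, all libraries were under 0.5 CPM, and muscle replicate 1 was 22.9-fold above replicate 3 (12.1 to 48.6). Chrna1 had 14.0 CPM (12.6 to 15.5), 4.79 (3.88 to 5.85) and 2.63 (2.15 to 3.19) in muscle replicates 1 to 3. In epithelium it had 0.762, 9.62 (8.12 to 11.3) and 4.995 CPM (4.18 to 5.92), so that only muscle replicate 1 was above all epithelial libraries. A RefSeq gene of unknown role, Gm30940, overlaps Chrna1, and the library kits keep no strand in standard use, so reads of the pair cannot be told apart.

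Promoter sequence is shown for Myog, Chrna1 and Chrng because all of them peaked in muscle replicate 1 and receptor subunit genes are textbook targets of the myogenic factors. Myf5 and Myh3 peaked among the muscle libraries in replicate 1 too, and their promoters are not shown. The 250 bases before the RefSeq start (GRCm38.p6) are given 5′ to 3′ on the gene's own strand, with each CANNTG in capitals. This E-box form reads the same on both strands. The windows are chr1:134289754-134290003 on the plus strand for Myog, chr2:73580339-73580588 on the minus strand for Chrna1 and chr1:87205561-87205810 on the plus strand for Chrng.
Myog: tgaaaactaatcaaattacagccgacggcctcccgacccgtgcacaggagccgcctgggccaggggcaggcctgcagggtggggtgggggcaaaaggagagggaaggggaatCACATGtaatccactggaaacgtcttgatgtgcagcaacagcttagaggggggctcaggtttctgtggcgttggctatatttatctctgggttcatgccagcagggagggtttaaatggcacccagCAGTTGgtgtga
Chrna1: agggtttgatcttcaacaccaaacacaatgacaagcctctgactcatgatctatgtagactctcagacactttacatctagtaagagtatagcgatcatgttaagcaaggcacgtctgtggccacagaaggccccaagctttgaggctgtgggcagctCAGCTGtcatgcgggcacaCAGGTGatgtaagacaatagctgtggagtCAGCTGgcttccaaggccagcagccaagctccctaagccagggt
Chrng: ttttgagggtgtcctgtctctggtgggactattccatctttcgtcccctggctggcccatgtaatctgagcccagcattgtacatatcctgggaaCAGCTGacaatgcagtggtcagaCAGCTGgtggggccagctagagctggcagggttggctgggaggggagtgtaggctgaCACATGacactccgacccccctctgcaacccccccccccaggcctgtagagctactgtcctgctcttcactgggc
Myog held 2 such motifs, starting 138 and 12 bases before the start, and Chrna1 and Chrng held 3 each. Of these, 2 in Chrna1 (92 and 44 bases before the start) and 2 in Chrng (155 and 132 bases) were the form CAGCTG. Among 32851 promoter windows of the same length, 66.2% held CANNTG and 31.8% held it at least 2 times, while 13% held CAGCTG and 1.26% held it at least 2 times. Sequences were matched for 6 of the 8 genes. Among those not shown, Myf5 held 0 CANNTG, Myh3 held 1 and Ttn held 1, and each held 0 CAGCTG. A match describes the letters and shows no binding.

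Myh3, the myosin heavy chain of embryonic skeletal muscle, lies on chromosome 11 (67078273 to 67102291), and the microRNA gene Mir6923 overlaps it. It had 52.2 CPM (49.5 to 55.1), 5.99 (4.97 to 7.16) and 5.69 (4.97 to 6.48) in muscle replicates 1 to 3. Epithelium had 0.316, 12.3 and 5.52 CPM. Muscle replicate 1 was 9.18-fold above replicate 3 (7.97 to 10.6), and muscle replicates 2 and 3 lay below epithelium replicate 2. Without muscle replicate 1 the fitted log2 fold change of 1.83 became -0.026. Per Myh3 count there were 4.70 Myog counts (4.43 to 4.98) in muscle replicate 1 and 3.04 (2.62 to 3.56) in replicate 3, so Myh3 was less reduced in replicate 3 than Myog was. Per kilobase of coding sequence Myh3 was at 2.09, 2.33 and 2.497 times the mean of the receptor genes in muscle replicate 2 and epithelium replicates 2 and 3. In muscle replicate 1 that ratio was 336, in muscle replicate 3 it was 56.6 and in epithelium replicate 1 it was 15.7.

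Ttn, on chromosome 2 (76703980 to 76982557), encodes titin, the spring protein that spans from the Z disc to the M band of the sarcomere and is made in heart as well as skeletal muscle. It had 973, 1496 and 206 counts in muscle replicates 1 to 3, or 37.0 (34.7 to 39.4), 74.7 (71.0 to 78.6) and 5.21 CPM (4.52 to 5.97). Epithelium had 0.186 (0.0891 to 0.342), 130 (124 to 136) and 60.7 CPM (57.8 to 63.7). The order of libraries by CPM was thus the order of their background counts among the 3 that had many, and the groups overlapped. With 112.1 kilobases of coding sequence, the most of the 8 genes, Ttn was at 1.35 times the coding density of the receptor genes in muscle replicate 2, at 1.28 times in epithelium replicate 2 and at 1.43 times in epithelium replicate 3. It was at 12.3 times that density in muscle replicate 1, at 2.69 times in muscle replicate 3 and at 0.480 times in epithelium replicate 1, where it rests on 10 counts. With exonic in place of coding length, a choice made after seeing the data, the ratios were 4.39, 4.14 and 4.62 in the 3 libraries with many background counts and 40.0 in muscle replicate 1. From muscle replicate 3 to 1, 2 libraries with few background counts, Ttn was 7.10-fold higher (6.11 to 8.30).

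**Figure D2:**
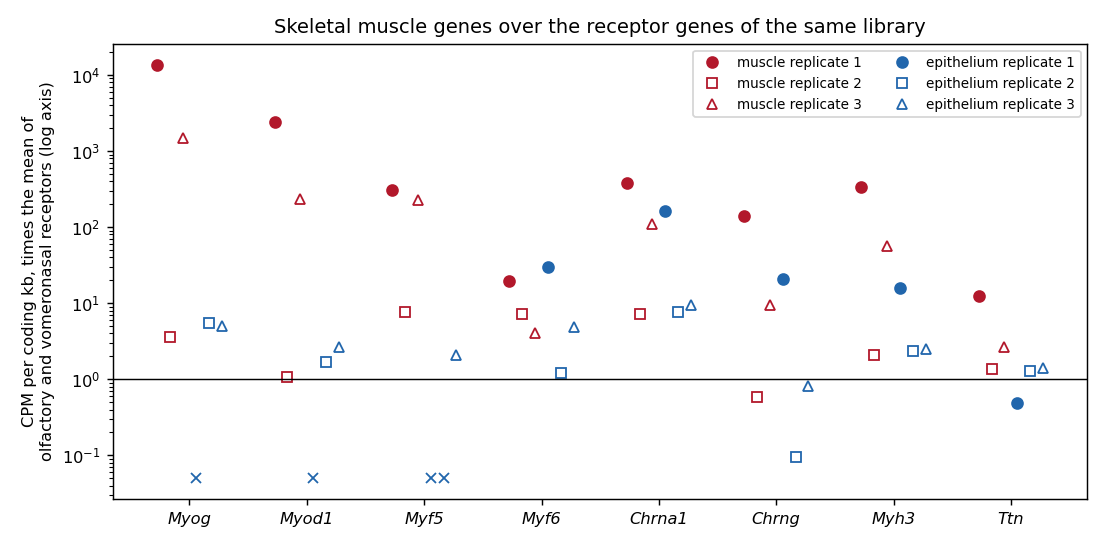
CPM per kilobase of coding sequence of each of the 8 genes, divided by the same quantity over the olfactory and vomeronasal receptor genes of the library (log axis, line at 1); red marks muscle and blue epithelium, symbols mark the replicates, and crosses mark libraries with no counts. Ttn lies at 1.28 to 1.43 times the receptor density in the 3 libraries with many background counts and at 12.3 times in muscle replicate 1, where Myog lies at 13660 times.

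Levels of different genes can be compared per kilobase of coding sequence. In muscle replicate 1 Myog was at 365 CPM per kilobase (356 to 374) and Myod1 at 65.1 (62.0 to 68.3). Chrna1 at 10.2 (9.21 to 11.3), Myh3 at 8.97 (8.51 to 9.46) and Myf5 at 8.20 (6.995 to 9.55) followed, and the intervals of these neighbours overlap. Chrng stood at 3.71 (3.15 to 4.35), Myf6 at 0.524 (0.251 to 0.963) and Ttn at 0.330 (0.310 to 0.351). The last 2 intervals overlap too. Myog and Myod1 were thus above the other 6 genes by this measure. The order below them depends on the length used: with exonic length, Myh3 was at 1060 times the receptor density in muscle replicate 1, Chrna1 at 393 times and Myf5 at 370 times.

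The other genes of the skeletal muscle programme were taken as 130 genes in 10 lists, written with earlier results of these data known, from muscle precursors to energy metabolism. In muscle replicate 1, 15 of the 130 (11.5%) had at least 1 CPM and at least 4 times their level in each other muscle library, against 0.162% of all genes. None did so in muscle replicate 3, and 17 (13.1%) did in muscle replicate 2, close to the 16.3% of all genes. Of the 23478 genes of the whole table, 38 stood apart in muscle replicate 1, and 15 of them were among the 130. Another 4 were among the 8, which were read library by library when they were chosen, so nothing is drawn from those 4. This compares single libraries and has no replicate check.

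Of the myoblast adhesion and fusion list, 3 of 9 stood apart in muscle replicate 1: Cdh15, or M-cadherin, with 49.95, 1.60 and 4.196 CPM in muscle replicates 1 to 3, and the genes of the fusion proteins myomaker (Tmem8c, now Mymk) and myomixer (Gm7325, now Mymx), with 21.3 and 14.4 CPM in replicate 1. In replicate 3 these fusion genes had 2.63 and 1.82 CPM, and in replicate 2 they had 0.0998 and 0.399. Of the receptor and synapse list, 2 of 10 stood apart there, Rapsn, which clusters the receptor, with 15.1 CPM, and the acetylcholinesterase gene Ache with 14.9 CPM in replicate 1. The highest value of either in another library was 2.65 CPM, of Rapsn in muscle replicate 3. Chrnd, the delta subunit, had 4.98, 1.45 and 0.506 CPM in muscle and up to 3.48 CPM in epithelium.

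Contractile and calcium handling genes stood apart in both replicates 1 and 2, where 0.162% and 16.3% of all genes did. Of the thick filament list 6 of 20 (30.0%) did so in muscle replicate 2 and 3 (15.0%) in replicate 1. For the thin filament list these were 2 of 18 (11.1%) and 1 (5.56%), and for the Z disc list 2 of 14 (14.3%) and 0. For the excitation-contraction coupling list they were 2 of 19 (10.5%) and 4 (21.1%). In replicate 2 all but the thick filament list lay under the share of all genes, so nothing is drawn from its counts. The thick filament genes of replicate 1 were Mybph with 17.0, 0.0998 and 0.581 CPM in muscle replicates 1 to 3, Mybpc1 with 18.9, 3.60 and 0.430, and the myosin light chain gene Myl1 with 10.5, 1.60 and 1.31. The thin filament gene was Tnnc2, which encodes fast troponin C, at 13.9 CPM in replicate 1. Of the excitation-contraction coupling genes, Sln, which encodes the calcium pump regulator sarcolipin, had 28.2, 0.899 and 1.09 CPM, and the pump gene Atp2a1 had 43.1, 5.94 and 3.97, with Cacng1 and Stac3 at 3.23 and 2.70 CPM in replicate 1. Msc, which encodes a repressor that competes with the myogenic factors (52.0, 7.49 and 12.7 CPM), and the myoglobin gene Mb (2.36, 0 and 0.126 CPM) complete the 15. No gene of the Z disc, precursor or partner lists stood apart in replicate 1. Pax3 and Pax7, which mark precursors upstream of the factors, had 0.152 and 0.912 CPM in muscle replicate 1. Their highest muscle value was in replicate 2, which has many background counts, whose part was not tested. Epithelium replicate 2 had more of both, at 4.545 and 5.75 CPM. In epithelium replicate 1, with few background counts, Pax7 had 1.80 CPM.

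**Figure D3:**
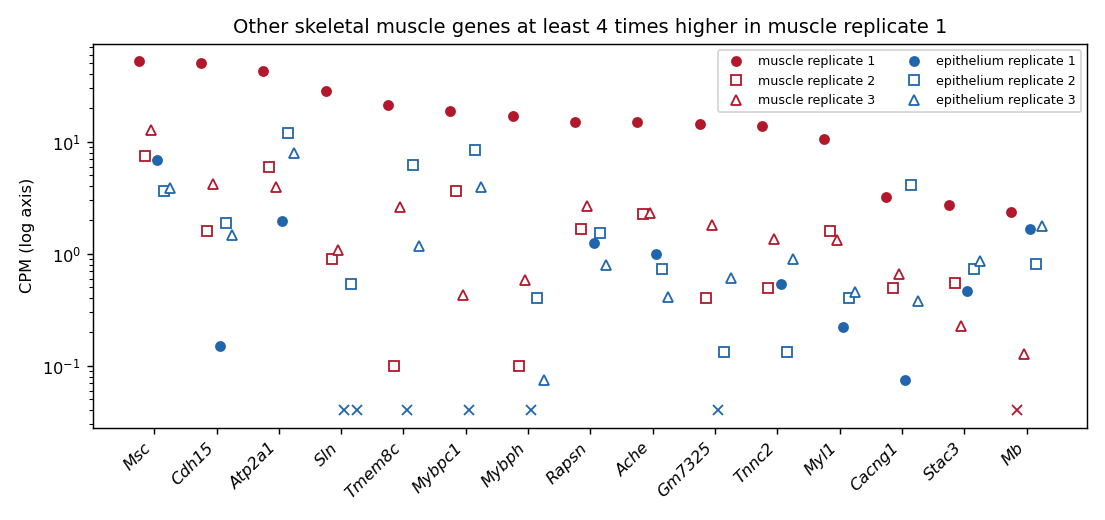
CPM (log axis) of the 15 other skeletal muscle genes with at least 4 times more in muscle replicate 1 than in each other muscle library; red marks muscle, blue epithelium, symbols mark single libraries, and crosses mark libraries with no counts. Muscle replicate 1 reaches 52.0 CPM in Msc and is the highest muscle library for every gene shown, while Cacng1 is higher in epithelium replicate 2.

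Muscle replicates 1 and 3, the muscle libraries with few background counts, were also compared over the whole programme. Chosen for an excess of at least 4-fold, the 15 genes ranged from 4.11-fold in Msc to 44.1-fold in Mybpc1. There were 117 other skeletal muscle genes with a mean of at least 1 CPM over the 3 muscle libraries. Of these, 48 (41.0%) were over 2-fold higher in replicate 1 and 4 (3.42%) in replicate 3, with 0.5 CPM added to each value. Of all genes at that mean, 3.11% and 6.2% were. All of the 15 but Mb are among the 48. The mean takes in muscle replicate 2, through which Pax3 and Xirp2 entered the 117. None of the 12 smooth muscle markers differed by over 2-fold, and Actg2, the gene behind the sorting reporter, was at 2438 and 2786 CPM in replicates 1 and 3. Summed cardiac markers were 45.8 and 54.1 CPM in the same libraries and 160 in muscle replicate 2, and summed neural and glial markers were 36.8, 36.2 and 94.6 CPM. The heat shock genes Hspa1a and Hspa1b, named after their values were seen, stood apart in muscle replicate 1 as well, with 1622 and 1472 CPM against 155 to 248 in the other muscle libraries. Their part in the result was not tested. In such bulk samples fewer cells of a type and less RNA per cell cannot be told apart.

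**Figure D4:**
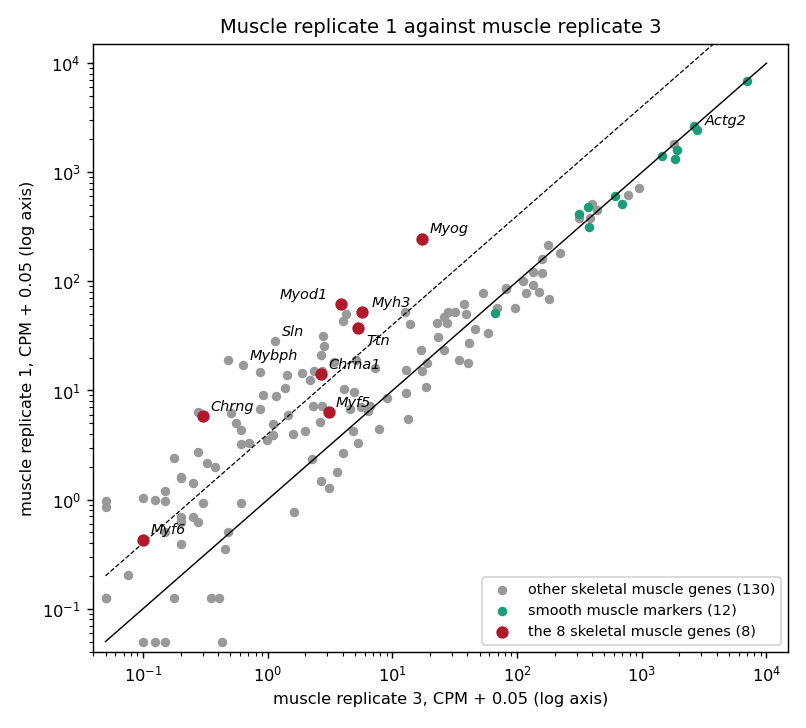
CPM in muscle replicate 1 against muscle replicate 3 (both log axes, 0.05 CPM added to each value) for the 8 genes (red), the 130 other skeletal muscle genes (grey) and 12 smooth muscle markers (green); the solid line marks equal levels and the dashed line a 4-fold excess in replicate 1. The smooth muscle markers lie along the solid line, and all of the 8 genes but Myf5 lie above the dashed one, Myf6 on 10 and 2 counts.

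The comparison of muscle with epithelium over all 6 libraries picked other genes. By edgeR's quasi-likelihood test with Benjamini-Hochberg adjustment over 19375 genes, 27 of 127 other skeletal muscle genes tested (21.3%) were higher in muscle at an adjusted p under 0.05, and 8 were higher in epithelium. Of all genes in the fit 6.58% (1274) passed toward muscle and 4.11% (797) toward epithelium. With library totals as the scaling these counts were 1041 and 1439. The median log2 fold change was 0.78 in the 127 genes and -0.10 in all genes, or -0.33 with library totals. Without both libraries numbered 2, and so within the later header date, the counts of skeletal muscle genes were 27 and 7. The 27 fell to 17 without muscle replicate 1 and to 13 without epithelium replicate 3. The 8 fell to 4 without muscle replicate 1 and to 5 without muscle replicate 3 or epithelium replicate 1.

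None of the 15 genes that stood apart in muscle replicate 1 was among the 27. In edgeR 0 of the 15 passed, with 8 at an unadjusted p under 0.05. DESeq2 passed 4 of them (Ache, Cdh15, Gm7325 and Msc) and limma-voom 0, with 7 and 0 at an unadjusted p under 0.05. The 27 had a median ratio of 1.03 between muscle replicates 1 and 3, from 0.539 in Jph2 to 3.79 in Pgam2. Whether RNA of the 27 came from smooth or skeletal muscle cells of the sort was not tested. Genes chosen for a gap between muscle libraries have a large spread within muscle, which lowers their chance of a call, so nothing is drawn from the lack of overlap.

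Of 18 thin filament genes 6 passed toward muscle and 0 toward epithelium. Acta1 and Actc1, the skeletal and cardiac alpha actin genes, had 379, 70.7 and 315 CPM and 722, 204 and 948 CPM in muscle replicates 1 to 3. Their levels in epithelium were up to 7.08 and 19.9 CPM. The log2 fold changes were 5.597 ± 0.64 (SE, adjusted p = 0.0010, edgeR) and 6.31 ± 1.17 (adjusted p = 0.0097), and Actc1 lost its call without epithelium replicate 3 (edgeR adjusted p up to 0.068 over the alternatives) and with the replicate number as a block (0.056). The slow troponin genes Tnni1 (4.18 ± 0.71, adjusted p = 0.0061) and Tnnc1 (4.24 ± 0.65, adjusted p = 0.0036) were also higher. Tnni1 had 52.7, 63.5 and 31.6 CPM in the muscle libraries, so its highest value was in replicate 2. All of these were above every epithelial library in each muscle library.

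Of 20 thick filament genes 2 were higher in muscle. Myl4, an atrial and embryonic myosin light chain gene, had 56.5, 21.4 and 69.2 CPM in muscle and up to 2.74 in epithelium (log2 fold change 4.85 ± 0.70, edgeR adjusted p = 0.0029). Myom1, the M band gene, had 85.0, 23.9 and 80.8 CPM (3.73 ± 0.94, edgeR adjusted p = 0.037) and kept its call in 5 of 13 alternative fits. It lost it without any 1 muscle library, without epithelium replicate 3, with either other scaling, with no filter and with the block (edgeR adjusted p = 0.13), at an adjusted p up to 0.19. Of 14 Z disc genes 1 was higher in muscle, Synpo2l (3.20 ± 0.86, edgeR adjusted p = 0.048), which kept its call in 4 of 13 fits. Synpo2l lost it without each library but epithelium replicate 2 and with the block (edgeR adjusted p = 0.066). It also lost it with either other scaling and with no filter, at an adjusted p up to 0.16. Of 19 excitation-contraction coupling genes 3 were higher in muscle, Jph2 (6.46 ± 0.83, edgeR adjusted p = 0.0017), Casq1 (4.43 ± 0.78, adjusted p = 0.0076) and Cacna2d1 (2.60 ± 0.51, adjusted p = 0.012). Each kept its call in all 13 fits. Jph2 had 79.9, 24.8 and 148 CPM in muscle and up to 1.87 in epithelium.

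In the adhesion and fusion list 5 of 9 genes were higher in muscle, all of them surface proteins found outside skeletal muscle too. Boc, a co-receptor of myoblast contact and of hedgehog signalling, had 384, 232 and 385 CPM in muscle and 21.9 to 55.8 in epithelium (log2 fold change 3.14 ± 0.40, edgeR adjusted p = 0.0015). Jam2 (3.34 ± 0.62, adjusted p = 0.0093), Cdon (1.72 ± 0.33, adjusted p = 0.010) and Jam3 (1.67 ± 0.33, adjusted p = 0.013) were higher too, by edgeR. Without epithelium replicate 3 the calls of Cdon and Jam3 were lost, at an edgeR adjusted p of 0.056 and 0.052, and with the block that of Jam2 (0.068). In the receptor and synapse list 0 of 10 genes were higher in muscle and 1, Chrnb1, the beta subunit, was higher in epithelium. It had 10.3, 5.54 and 4.04 CPM in muscle and 28.0, 30.6 and 29.7 in epithelium (log2 fold change -2.15 ± 0.38, edgeR adjusted p = 0.0071).

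Of 8 precursor genes 2 passed toward muscle and 1 toward epithelium. Heyl, a Notch target, had 448, 420 and 434 CPM in muscle and up to 11.1 in epithelium (log2 fold change 6.50 ± 0.77, edgeR adjusted p = 0.0012). Megf10 (3.49 ± 0.67, edgeR adjusted p = 0.011) lost its call without epithelium replicate 3 and with the block (0.067), and Met (-1.84 ± 0.25, adjusted p = 0.0020) was higher in epithelium. Of 11 upstream regulators tested 2 were higher in muscle, among them Tcf21 (3.37 ± 0.55, edgeR adjusted p = 0.0049). The other calls of this list were toward epithelium, with Six4, Eya1, Eya2 and Tbx1. Of these, Eya1 kept its call in all 13 fits. Eya2 lost it without muscle replicate 1 or 3 or epithelium replicate 2 or 3, with limma-voom and with the block (edgeR adjusted p = 0.067), at an adjusted p up to 0.11, and Six4 without muscle replicate 3 or epithelium replicate 1 and without both libraries numbered 2, at up to 0.12. Tbx1 (-3.94 ± 0.79, edgeR adjusted p = 0.013), a regulator of branchial muscle that is expressed in pharyngeal epithelium too, had 0.456, 1.20 and 0.430 CPM in muscle. Its call was lost without muscle replicate 1 or 3 or epithelium replicate 1 and with limma-voom, at an adjusted p up to 0.083.

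Partners of the factors were expressed in both populations. Of 10 genes 4 passed toward muscle and 2 toward epithelium. The E protein gene Tcf12 had 510, 200 and 398 CPM in muscle and 125 to 151 in epithelium (log2 fold change 1.41 ± 0.34, edgeR adjusted p = 0.030), while Tcf3, another E protein gene, was lower in muscle (-1.83 ± 0.44, adjusted p = 0.029). Mef2c, which acts with the factors on muscle promoters, had 159, 148 and 159 CPM in muscle and 1.64 to 25.8 in epithelium (3.62 ± 0.79, edgeR adjusted p = 0.020). Tcf12 lost its call without muscle replicate 1 or 3 or epithelium replicate 2 or 3, Tcf3 without muscle replicate 1 or 2 or epithelium replicate 1, and Mef2c without any 1 muscle library or epithelium replicate 3, with edgeR adjusted p up to 0.14, 0.11 and 0.12. Tcf3 also lost it with the block (0.063) and without both libraries numbered 2, and Mef2c with library totals as the scaling. Id3 and Id2, whose products block E proteins, reached 1825 CPM in muscle replicate 1 and 1243 CPM in epithelium replicate 3. Neither passed the threshold (edgeR adjusted p = 0.82 and 0.12), though Id2 was lower in every muscle library than in every epithelial one. The related Id1 was higher in epithelium (log2 fold change -1.85 ± 0.44, edgeR adjusted p = 0.028). Its call was lost without muscle replicate 1 or epithelium replicate 3, at an edgeR adjusted p up to 0.063. In energy metabolism 2 of 8 tested genes were higher in muscle, Pgam2 (2.95 ± 0.66, edgeR adjusted p = 0.022) and Pfkm (1.11 ± 0.29, adjusted p = 0.040). Without muscle replicate 1 the edgeR adjusted p was 0.28 and 0.14, and without epithelium replicate 3 it was 0.10 and 0.20. Pfkm also lost its call without muscle replicate 3 or epithelium replicate 2, and Pgam2 with limma-voom and without both libraries numbered 2.

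Likeness over the 6 libraries was measured by Pearson's r between log2(CPM + 1) and its mean over the 8 genes, as a description over 6 points that share depth and background. The mean was 4.36 in muscle replicate 1, 2.21 and 2.01 in replicates 2 and 3, and 0.214, 2.33 and 1.99 in epithelium. The 10 genes most like it, of 17997 ranked, included Eif1a, Adcyap1r1, Bcs1l, St6galnac5, Casq2, Cd55, Zfp442, Zfp597 and L1td1, with r from 0.961 to 0.977. Casq2, a calcium store gene of muscle, was the only one in the lists, with 18.02, 5.94 and 3.34 CPM in muscle and 0, 2.74 and 2.40 in epithelium. Several of the others varied little, as Eif1a did, between 157 and 237 CPM. Against Myog alone, a choice made after the 8 genes were seen to differ, Scai ranked first (r = 0.996), at 30.8 to 54.1 CPM. Myod1 was at place 2 (r = 0.986), Ispd at place 3 and Cdh15 at place 4 (0.981) of 18004 genes, and Ttn had an r of 0.165. Against Ttn, the closest were Notch4 (r = 0.9955), Tmem67 and 6030443J06Rik. The muscle genes Neb (r = 0.986) and Myot (0.981) were at places 4 and 9. Neb had 25.5, 27.2 and 2.76 CPM in muscle and 0.297, 34.4 and 22.8 in epithelium. The part of background counts in this likeness was not tested.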

How the data were processed

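RNA was measured in 6 libraries, 3 for each sorted population. Per the labels' protocols, cells were dissociated with TrypLE and sorted, and libraries were made with SMART-Seq v4 and Nextera XT, which carry no molecular identifiers. The deposited values are whole-number counts per gene symbol. Per the submitters' processing notes, Trim Galore, Bowtie2, Cufflinks and DESeq were used with build mm10. Their roles and the annotation are not given in the sources used here. Counts from 1 to 19 were even in 73.8% to 79.6% of cases, against 49.4% to 50.6% of counts of 100 or more, as when both mates of a pair are counted, and intervals are then too narrow.

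Counts were fitted in edgeR 4.0.16 (R 4.3.3; filterByExpr, TMM, robust quasi-likelihood, two-sided), on all genes and tested on simulated data. Alternatives used DESeq2 1.42.0, limma 3.58.1 (voom), other scalings, no filter, a replicate block and 1 library left out. SE came from the test statistic. A library with 0 counts was given a floor of 3 counts. The smallest p of an exact permutation test of 3 against 3 libraries is 0.10, so none was run. Coding and exonic lengths came from GENCODE M21, gene positions and promoters from RefSeq (GRCm38.p6). Mymk and Mymx were matched through RefSeq synonyms.

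The 8 genes and the lists were chosen with earlier results of these data known. The rule for named genes took the 8, in each skeletal muscle list the 3 with the highest mean CPM in muscle and up to 3 called genes by absolute log2 fold change, and the 10 most like the 8. Other genes, with those that stood apart in 1 library, were named after their values were seen. Some genes that this rule took are not reported here.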

Additional observations from a re-analysis of the deposited data

How the results depend on the processing

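The median of the 8 genes in each muscle library moved by less than the spread between those libraries under either other scaling, but with library totals replicates 2 and 3 changed order. Leaving out 1 library at a time gave 13 to 26 other skeletal muscle genes higher in muscle and 4 to 7 higher in epithelium, and 570 to 1655 and 514 to 918 of all genes. DESeq2 gave 1954 and 1585 of all genes, and library totals gave 1439 higher in epithelium. With the replicate number as a block, 21 and 6 skeletal muscle genes and 1602 and 816 of all genes passed. Deviations of same-numbered libraries correlated at 0.59, 0.73 and -0.57 across 19375 genes, and the pair numbered 3 has different header identifiers, so the numbers were not taken to pair all the libraries, although the pairs numbered 1 and 2 each share one.

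Fitted fold changes of 4 of the 8 genes changed sign. Myf6 (0.44) was at -0.0087 with limma-voom, -1.81 without both libraries numbered 2, -1.77 without muscle replicate 2 and -0.10 without epithelium replicate 1. Chrna1 (0.48) was at -0.45 without muscle replicate 1 and -0.0077 without epithelium replicate 1, Myh3 at -0.026 without muscle replicate 1, and Ttn (-0.71) at 2.66 with limma-voom and 0.45 without epithelium replicate 2. Without muscle replicate 1 the fold changes of Myog and Myod1 went from 5.996 and 4.84 to 2.63 and 1.44, and that of Chrng from 3.12 to 0.52. Over the fits without 1 library the highest values were 1.19 for Myf6, 1.32 for Chrna1 and 2.89 for Myh3, and the lowest for Ttn was -1.58. The cause was not tested. Other skeletal muscle genes standing apart in muscle replicate 1 numbered 25 at 2 times and 5 at 10 times in place of 4. In replicate 2 they numbered 30 and 9, 7 at a minimum of 5 CPM and 26 with library totals, and in replicate 3 there were 2 at 2 times. With a pseudocount of 0.5, the genes most like the 8 shared 8 of 10. Low values are limited by background counts in muscle replicate 2 and epithelium replicates 2 and 3.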

Other observations

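The remaining 19 of the 38 genes that stood apart in muscle replicate 1 belong to no skeletal muscle list and were named after their values were seen. Art1, an ADP-ribosyltransferase gene known from skeletal muscle, had 10.7, 1.10 and 2.63 CPM in muscle replicates 1 to 3, and Hspb3, a small heat shock gene known from muscle, had 1.75, 0.300 and 0.152. Rprm had 81.8, 7.19 and 15.3 CPM in muscle and 44.8 to 87.4 in epithelium, and Moxd1 had 44.0, 5.09 and 7.25 CPM in muscle and 93.7 to 204 in epithelium. At a stricter setting of at least 5 CPM and at least 10 times each other muscle library, 8 genes remained: Myog, Myod1, Cdh15, Sln, Mybph, Tnnc2, Ifi204 and Chrng. Ifi204, an interferon-inducible gene, was the only one of them in no skeletal muscle list, with 6.16, 0.399 and 0.0758 CPM.

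The endothelial markers differed between the same libraries in the other direction. Of 7 with a mean of at least 1 CPM in muscle, 6 were over 2-fold higher in muscle replicate 3 than in replicate 1. Of all such genes 6.2% were, with 0.5 CPM added to each value in both counts. Some of the 6 rest on few counts, as Cdh5 and Sox17 do with 2 and 5 in replicate 1. Cldn5, named after its values were seen, had no count in muscle replicate 1. The summed list was at 39.4 and 66.5 CPM in replicates 1 and 3, of which Tek made up 34.6 and 32.9.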
